A study of Sus scrofa with 37 samples.

Results

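The Toll-like receptor adaptors and interleukin-1 receptor-associated kinases (IRAK) were examined in the peripheral blood mononuclear cells (PBMC) of pigs fed diets that differed in digestible phosphorus (P). The set comprised 9 genes, namely MYD88, TIRAP, TICAM1, IRAK1, IRAK3, IRAK4, TRAF6, LY96 and TOLLIP, and its members were all probe sets that the array annotation assigns to them. These were 14 of the 47845 probe sets on the array, and they covered 7 of the 9 genes. TIRAP and TRAF6 had 0 probe sets under their symbols in the annotation, and no value is given for them here.

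The samples were RNA of PBMC from 19 pigs whose later diet was low (L, 6 pigs), medium (M, 6 pigs) or high (H, 7 pigs) in digestible P. The 63 dpn (days postnatum) arrays formed the groups L (6 arrays, 3 female and 3 male pigs), M (5 arrays, 3 female and 2 male pigs) and H (7 arrays, 4 female and 3 male pigs). All 19 arrays taken at 28 dpn, before the diets began, served as 1 reference group R, as in the methods of the study. H against R therefore holds diet and age together, which cannot be told apart in that comparison. For this reason the pigs of each diet were also compared with their own 28 dpn arrays, and the diets with each other at 63 dpn. By the study's methods the piglets came from several litters, which did not enter the comparisons, and all were weaned at 28 dpn.

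Toll-like receptors and receptors of the interleukin-1 family carry a shared signaling domain inside the cell. On binding of a ligand, this domain recruits the adaptor MYD88, in part through TIRAP, and MYD88 gathers IRAK4, which phosphorylates IRAK1 and IRAK2. The IRAK kinases engage the ubiquitin ligase TRAF6, from which the signal runs to NF-kB and the MAP kinases. TICAM1, also known as TRIF, is the adaptor of a separate branch that leads to interferon regulatory factors. LY96, also known as MD-2, binds lipopolysaccharide together with TLR4 outside the cell. IRAK3, also known as IRAK-M, and TOLLIP act as brakes on the route through MYD88. Among blood cells, monocytes and other myeloid cells are known for the strongest use of this pathway. These roles were described mainly in human and mouse cells.

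Probe sets are given by the number in their identifier, so that 023261 stands for SNOWBALL_023261_s_st. All values are log2 values after robust multi-array averaging (RMA), which puts arrays on a common scale. A probe set entered the tests when its SD over the 37 arrays was above 0.23 and its mean above 2.5, which held for 28086 probe sets (58.7%). A difference was called when the limma P value and Storey's q value, computed over all these probe sets, were both 0.05 or less. Array medians lay between 5.25 and 5.42, and the highest correlation between 2 arrays after centring each probe set was 0.379, so no array was a copy of another. Of the markers that define PBMC, PTPRC lay between 11.1 and 12.5, CD3E between 9.91 and 10.9 and CD14 between 7.58 and 11 on all arrays.

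Of the 14 members, 8 passed the filter, namely both probe sets of MYD88 and of IRAK4, the probe set of LY96, that of TOLLIP and 2 of the 4 probe sets of IRAK3. The probe set of TICAM1, the 3 of IRAK1 and the other 2 of IRAK3 did not. The filter turned on the SD for each of these 6, since their means lay between 6.21 and 8.18 and their SD between 0.13 and 0.21. The nearest member below the threshold was IRAK1 020430 with an SD of 0.214, and the nearest above was TOLLIP 025575 with 0.243. Because passing depends on a spread that includes the H arrays, counts over the 8 members are given as a description only.

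In H samples, most of the 8 members lay above R, but 1 of them, a probe set of IRAK4, was called, where 2.09% of all probe sets tested were called. IRAK4, the kinase that MYD88 recruits directly, was 1.28-fold higher in H than in R by probe set 023261, which was called. The study itself lists IRAK4 as higher in H than in R on these samples, so this call is no independent evidence. The other probe set of IRAK4, 007774, had a fold of 1.26 and was not called. MYD88 and LY96 showed larger differences that were not called, and the H pigs differed widely among themselves in both genes. IRAK3, TOLLIP, TICAM1 and IRAK1 showed smaller differences, none of them called. PBMC are a mixture, and in these bulk samples more or fewer cells of a type cannot be told apart from more or less RNA of a gene per cell.

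The values of IRAK4 023261 at 63 dpn in H samples were 8.43 (pig 6), 8.48 (pig 3), 8.67 (pig 9), 8.74 (pig 15), 8.86 (pig 18), 9.21 (pig 11) and 9.46 (pig 12). In R samples the lowest value was 8.15, the median 8.50 and the highest 8.74. The groups overlapped, with 4 of the 7 H samples above the highest R sample and 6 of the 7 above the R mean. The log2 difference was 0.36 with an SE of 0.10, a limma P of 0.00131 and a q of 0.0456. Probe set 007774 gave a lowest, median and highest value of 8.13, 8.21 and 9.02 in H samples, against 7.50, 8.07 and 8.44 in R samples. All 7 H samples lay above the R mean here, and the log2 difference of 0.34 (SE 0.11) had a q of 0.0759. Both probe sets thus differed in the same direction by a similar amount, on either side of the threshold. With pig as a fixed block, which sets each H sample against its own 28 dpn array, both were called, with log2 differences of 0.47 (q = 0.0234) for 023261 and 0.46 (q = 0.0164) for 007774. In that fit 10.5% of all probe sets were called, against 2.09% in the fit of H against R without a block. With Benjamini-Hochberg adjustment the call of 023261 was lost (adjusted P = 0.0718 by limma), and it held in 20 of the 37 fits that left out a single array.

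**Figure D1:**
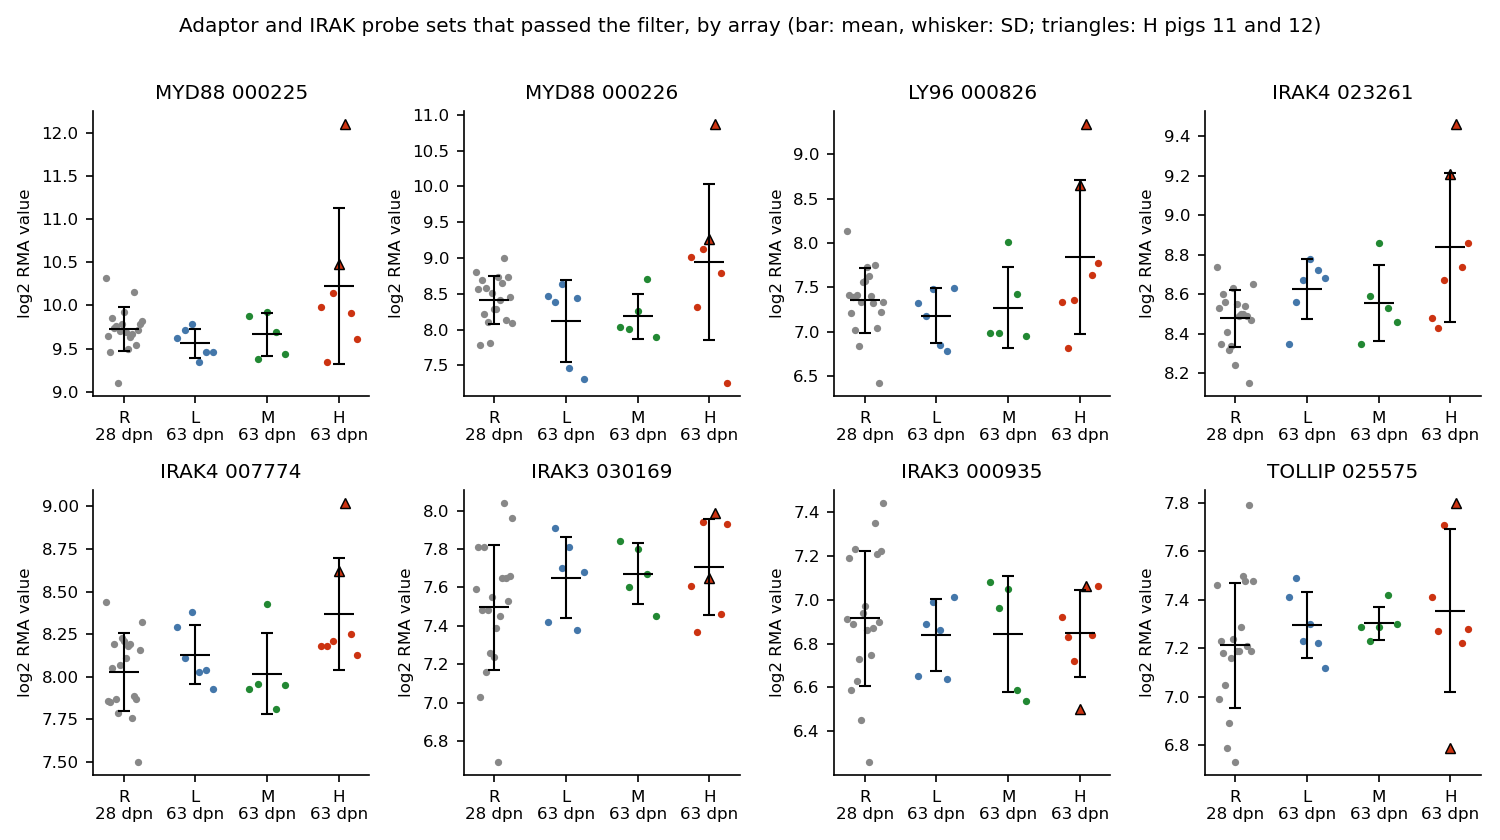
Log2 RMA values (vertical axes) of the 8 probe sets that passed the filter, by array, in R at 28 dpn (19 arrays) and in L (6), M (5) and H (7) at 63 dpn. Bars are means, whiskers SD, and triangles mark the 63 dpn arrays of H pigs 11 and 12, which are the highest H arrays for both probe sets of MYD88 and of IRAK4 and for LY96.

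MYD88, the adaptor shared by nearly all Toll-like receptors and the interleukin-1 receptor, had 63 dpn values in H samples of 9.34 (pig 6), 9.61 (pig 18), 9.91 (pig 15), 9.98 (pig 3), 10.15 (pig 9), 10.48 (pig 11) and 12.10 (pig 12) by probe set 000225. The R samples ran from 9.10 to 10.32 with a median of 9.71. The log2 difference was 0.50 (SE 0.19, q = 0.0982), and 5 of the 7 H samples lay above the R mean. Pig 12 alone stood 1.62 above the next H sample, and the other H samples except pig 11 lay within the range of R. By probe set 000226, MYD88 ran from 7.25 (pig 18) to 10.87 (pig 12) in H samples with a median of 9.01, and from 7.79 to 9.0 in R samples with a median of 8.45. Here 4 of the 7 H samples were above the highest R sample while pig 18 was below the lowest, and the log2 difference of 0.54 (SE 0.24) had a q of 0.138. The SD of the H samples was 0.90 for 000225 and 1.09 for 000226, against 0.26 and 0.33 in R samples.

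LY96, the lipopolysaccharide-binding partner of TLR4, showed the same wide spread. In H samples it lay at 6.82 (pig 6), 7.33 (pig 3), 7.36 (pig 9), 7.64 (pig 15), 7.77 (pig 18), 8.65 (pig 11) and 9.34 (pig 12). In R samples it lay between 6.42 and 8.13 with a median of 7.39. Only pigs 11 and 12 exceeded the R range, and the log2 difference of 0.49 (SE 0.21) had a q of 0.13.

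The inhibitory members showed smaller differences. IRAK3 030169 ran from 7.37 to 7.99 in H samples with a median of 7.65, and from 6.69 to 8.04 in R samples with a median of 7.53, and the log2 difference was 0.21 (SE 0.13, q = 0.245). IRAK3 000935 had a median of 6.84 in H samples and 6.90 in R samples, with a log2 difference of -0.07 (SE 0.12, q = 0.51). TOLLIP 025575 had a median of 7.28 in H samples and 7.19 in R samples, with a log2 difference of 0.14 (SE 0.11, q = 0.339). For each of these probe sets the H samples lay within or almost within the range of R, with only TOLLIP in pig 12 (7.80) marginally above it.

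At an unadjusted P of 0.05 or less, 5 of the 8 members had differences between H and R, all positive, against 18.3% of all probe sets in either direction. These 5 were both probe sets of MYD88, both of IRAK4 and that of LY96. The log2 difference was positive for 7 of the 8 members, with a median of 0.35, while the median over all probe sets tested was -0.02.

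The difference of H from R was much smaller without the 63 dpn arrays of pigs 11 and 12. In a fit without these 2 arrays, the log2 difference of MYD88 was 0.08 (SE 0.13, q = 0.631) by 000225 and 0.11 (SE 0.21, q = 0.649) by 000226, and that of LY96 was 0.04 (SE 0.18, q = 0.706). For IRAK4 it was 0.16 by both probe sets, with SE of 0.10 and 0.12 and q of 0.409 and 0.465. The members called numbered 0 of 8 in that fit, the median over the members was 0.13, and 4 probe sets (0.0142%) were called on the whole array. IRAK3 030169 (0.17) and TOLLIP (0.16) kept their differences within 0.05 of those with all arrays, so that without pigs 11 and 12 the members with a positive difference all lay between 0.04 and 0.17. The 2 arrays were left out for their values, and the labels give no technical reason to doubt them.

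**Figure D2:**
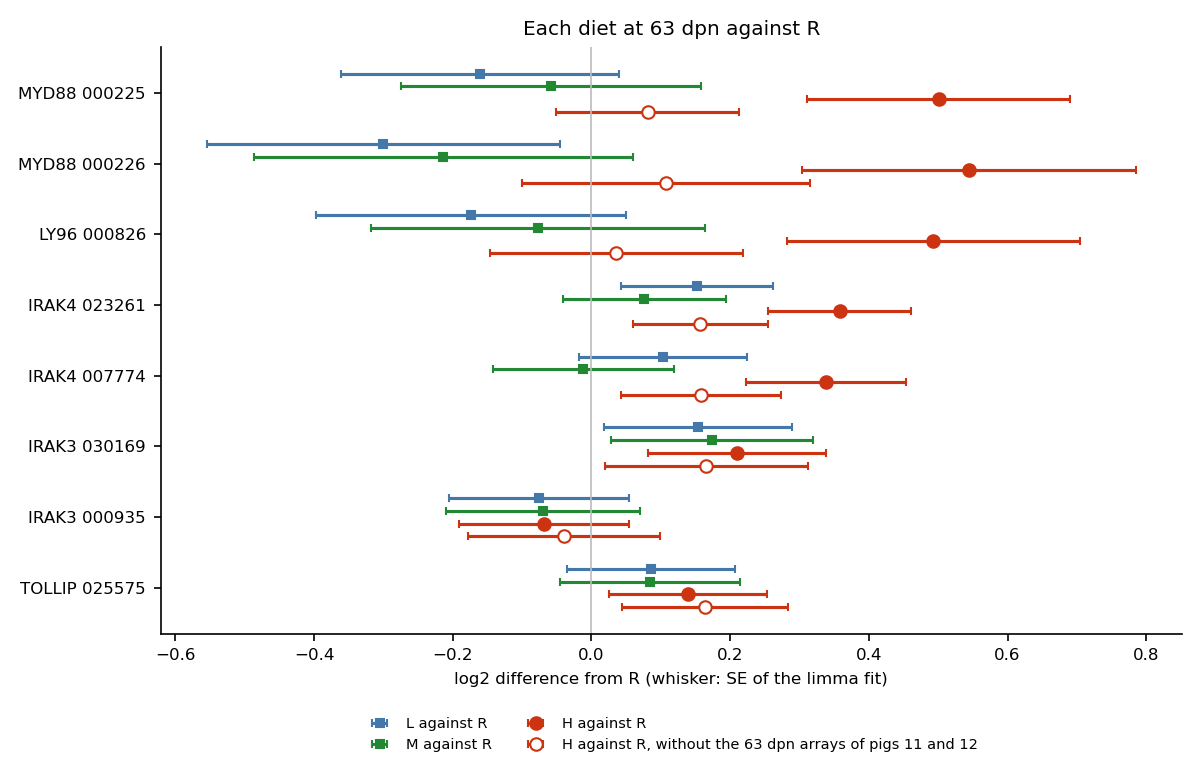
Log2 difference from R (horizontal axis) of the 8 probe sets that passed the filter for L, M and H at 63 dpn, and for H without the 63 dpn arrays of pigs 11 and 12 (open circles). Points are limma estimates and whiskers SE, and the MYD88 and LY96 estimates of H move from between 0.49 and 0.54 to between 0.04 and 0.11 when these arrays are left out.

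The same 2 arrays also had the highest mean values of monocyte genes, and that of pig 12 the highest of neutrophil genes. Of 12 monocyte genes listed, 9 were tested, and their mean log2 value lay between 8.0 and 10.14 in H samples (mean 8.73), against 7.52 to 8.97 in R samples (mean 8.30). Pigs 12 (10.14) and 11 (9.04) had the highest values among all 37 arrays, and the other 5 H pigs had a mean of 8.39. In H against R, 1 of the 9 genes was called, which was CD14, the coreceptor of TLR4 for lipopolysaccharide, and 8 of the 9 lay higher in H. Of 11 neutrophil genes, 8 were tested, with a mean between 7.88 and 9.51 in H samples, against 7.48 to 8.54 in R samples. Pig 12 (9.51) was the highest of all 37 arrays here as well, and pig 11 (8.51) was the next H sample, within the range of R. In H against R, 0 neutrophil genes were called and 7 of the 8 lay higher in H, with a median log2 difference of 0.50, against 0.48 for the monocyte genes. Without the arrays of pigs 11 and 12 these medians were 0.06 and 0.13. Erythroid genes (5 of 9 tested) lay between 11.01 and 12.31 in H samples, against 11.62 to 12.62 in R samples, with 1 called lower in H. Among the genes of other cells, 0 of 7 T cell, 1 of 6 B cell, 0 of 8 NK cell and 0 of 6 platelet genes were called in H against R, the B cell gene higher in H. Of all probe sets, 2.09% were called in this comparison, and the counts of each cell type here are a description only. Values after RMA have no zero, so absence of a cell type cannot be read from them. The part of cell composition in the differences of the members was not tested.

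**Figure D3:**
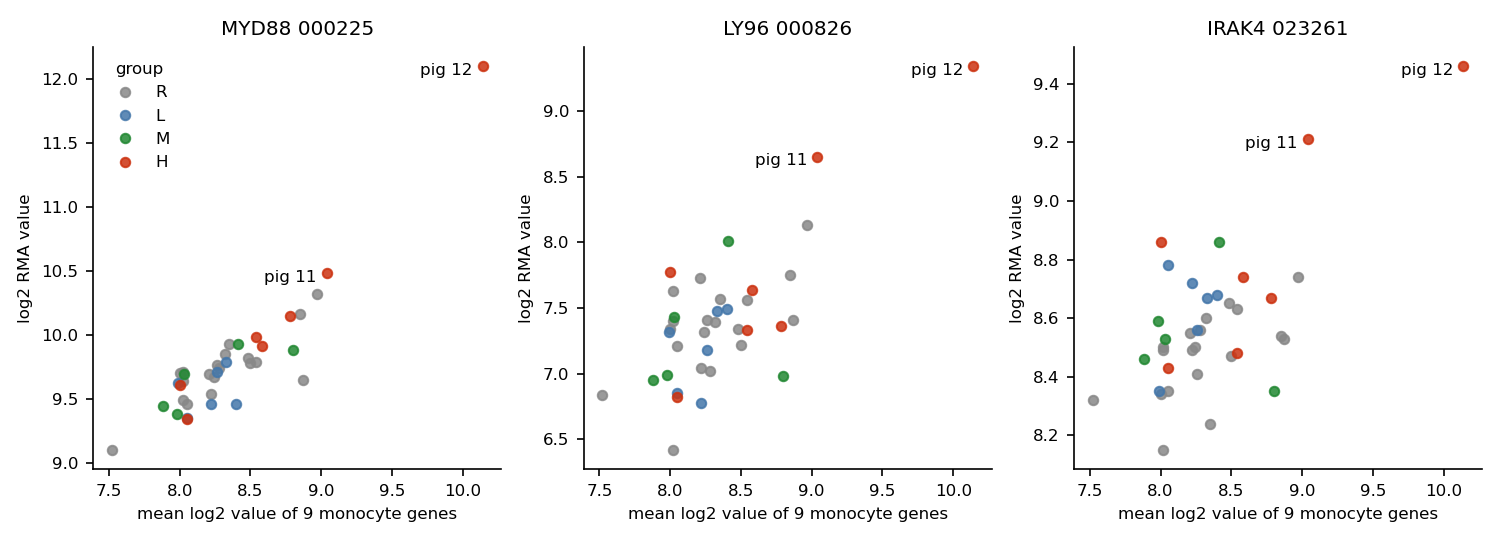
Log2 RMA values of MYD88 000225, LY96 000826 and IRAK4 023261 (vertical axes) against the mean log2 value of the 9 monocyte genes tested (horizontal axes), with 1 point for each of the 37 arrays, by group. The 63 dpn arrays of pigs 12 and 11 lie highest on both axes in each panel.

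The members varied together to different degrees over the 37 arrays. As a description, the Pearson correlation of MYD88 000225 was 0.82 with LY96, 0.68 with IRAK4 023261 and 0.71 with IRAK4 007774. After removal of the means of the 6 groups of diet and age, these values were 0.77, 0.67 and 0.68. Probe sets of the same gene correlated at 0.82 for MYD88 and at 0.75 for IRAK4. TOLLIP was less similar to these genes, with 0.36 to MYD88 000225 and 0.05 to LY96. MYD88 000226 had lower correlations, at 0.60 with LY96, 0.45 with IRAK4 023261 and 0.52 with IRAK4 007774. By 000225, the arrays with high values of MYD88 were largely those with high values of LY96 and IRAK4, and these points share the arrays of pigs 11 and 12.

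Compared with R, the diets L and M left all members without a call. In L against R, 0 of the 8 were called and 0 had an unadjusted P of 0.05 or less, while 0.0249% and 9.23% of all probe sets did so. The log2 differences ran from -0.30 for MYD88 000226 to 0.15 for IRAK3 030169, with 4 higher and 4 lower. In M against R, the members called were again 0 of 8 and those at an unadjusted P of 0.05 or less 0, while all probe sets gave 0.0178% and 5.07%. The log2 differences ran from -0.21 for MYD88 000226 to 0.17 for IRAK3 030169. IRAK4 023261 had a median of 8.67 in L samples, against 8.50 in R samples (log2 difference 0.15, SE 0.11, q = 0.631). In M samples its 5 values were 8.35, 8.46, 8.53, 8.59 and 8.86 (log2 difference 0.08, SE 0.12, q = 0.999). For this probe set the L and M samples overlapped widely with R, and only 1 sample of each diet exceeded the highest R sample. All 3 comparisons used the same R samples.

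At 63 dpn the diets were compared with each other. Among L, M and H, 0 of the 8 members were called, and 0% of all probe sets were. MYD88 000226, MYD88 000225 and LY96 reached an unadjusted P of 0.05 or less in the limma F test, that is 3 of 8 members against 7.42% of all probe sets, and their q was 0.537 or more. H against the mean of L and M gave 0 calls among the members and 0% over all probe sets. By unadjusted P, 5 of the 8 were higher in H, against 11.6% of all probe sets in either direction. They comprised MYD88 with log2 differences of 0.61 (SE 0.21) and 0.80 (SE 0.26), LY96 with 0.62 (SE 0.23) and IRAK4 with 0.24 (SE 0.11) and 0.29 (SE 0.13). The smallest q among the members was 0.233. For MYD88 000225, the lowest, median and highest values were 9.35, 9.54 and 9.79 in L samples, 9.38, 9.69 and 9.93 in M samples, and 9.34, 9.98 and 12.10 in H samples. The H samples reached as low as those of the other diets and extended further upward. Without the arrays of pigs 11 and 12, 0 of the 8 had an unadjusted P of 0.05 or less in this comparison, and the median log2 difference over the members was 0.09.

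For the change with age, each diet at 63 dpn was set against the 28 dpn arrays of the pigs later fed that diet. IRAK4 was higher at 63 dpn than at 28 dpn in every H pig. The change of IRAK4 023261 within H pigs was 0.02 (pig 6), 0.13 (pig 3), 0.25 (pig 15), 0.33 (pig 9), 0.71 (pig 18), 0.91 (pig 12) and 0.97 (pig 11) on the log2 scale. Probe set 007774 changed by 0.14 to 0.91, with a median of 0.41. The fitted change was 0.47 (SE 0.12, 1.39-fold, q = 0.0106) for 023261 and 0.46 (SE 0.13, 1.38-fold, q = 0.02) for 007774, and both were called. In L pigs, 023261 was higher at 63 dpn in 4 of 6 and 007774 in 3 of 6, with mean changes of 0.03 and -0.05. In M pigs each was higher in 2 of 5, with mean changes of 0.04 and -0.04.

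At the start the later H pigs had the lowest mean of IRAK4, though without a call. At 28 dpn, before the diets began, the mean of 023261 was 8.60 ± 0.09 in the later L pigs (SD, n = 6), 8.48 ± 0.08 in the later M pigs (n = 6) and 8.36 ± 0.14 in the later H pigs (n = 7). The later diets did not pass the test for IRAK4 at that age, with limma P of 0.175 for 023261 and 0.155 for 007774. The fit behind these P values took 1 spread per probe set over all groups. That spread included the H samples taken after feeding, with an SD of 0.38 for 023261 and 0.33 for 007774. Both lay above the SD of each group at 28 dpn. The P values therefore do not show that the later diets were alike in IRAK4 at the start. Of the 8 members that passed the filter, 0 were called and 0 had an unadjusted P of 0.05 or less at 28 dpn. The shares over all probe sets tested were 0% and 11.3%. In a fit without the filter, 0 of the 14 members were called at 28 dpn, and 0% of all probe sets were. By unadjusted P, 1 of the 14 lay at 0.05 or less. The share over all probe sets by that measure is not given here, so this count is a description only. The probe set was IRAK3 000934. Its means at 28 dpn were 7.56 in the later L, 7.67 in the later M and 7.41 in the later H pigs.

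**Figure D4:**
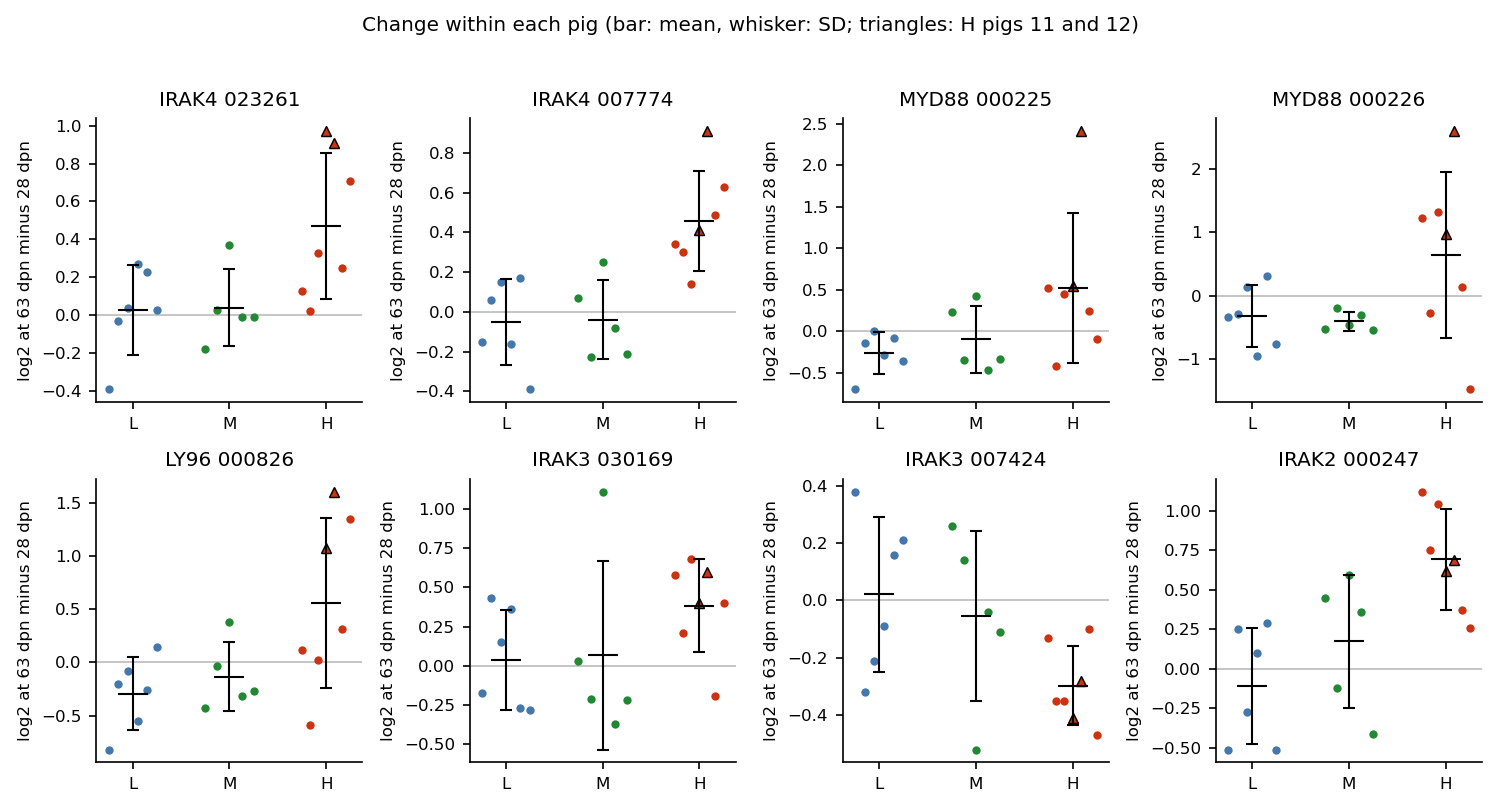
Log2 value at 63 dpn minus 28 dpn (vertical axes) within each pig fed L (6 pigs), M (5) or H (7), for probe sets of IRAK4, MYD88, LY96, IRAK3 and IRAK2. Bars are means, whiskers SD, and triangles mark H pigs 11 and 12. All 7 H pigs lie above 0 for both probe sets of IRAK4 and for IRAK2 000247, and below 0 for IRAK3 007424.

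Changes of the remaining members in H pigs were more varied. MYD88 000225 was higher at 63 dpn in 5 of 7 H pigs, with changes from -0.42 (pig 6) to 2.41 (pig 12), with a median of 0.45. MYD88 000226 was higher in 5 of 7 as well, with changes from -1.48 (pig 18) to 2.60 (pig 12). LY96 was higher in 6 of 7, with changes from -0.59 (pig 6) to 1.61 (pig 12), with 1.35 in pig 18 and 1.08 in pig 11. The genes did not always move together, since LY96 and IRAK4 of pig 18 were higher at 63 dpn while its MYD88 000226 was lower. None of these changes of MYD88 and LY96 were called, with q from 0.0823 to 0.0923. In M pigs, MYD88 000226 was lower at 63 dpn in 5 of 5, by -0.19 to -0.55, without a call (q = 0.992). The fit behind this q pooled the spread of all groups and did not use the pairing of pigs. Its SE was 0.34, while the change within the M pigs had a mean of -0.41 and an SD of 0.15.

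Of the 8 members, 2 were called in H with age, against 12.5% of all probe sets, and 6 had an unadjusted P of 0.05 or less, all higher, against 25.1%. The member added to MYD88, LY96 and IRAK4 here was IRAK3 030169, which was higher in 6 of 7 H pigs with a fitted change of 0.38 (SE 0.15, q = 0.056). In L with age and in M with age, 0 members were called and 0 had an unadjusted P of 0.05 or less. The shares over all probe sets were 0% and 5.53% for L and 0% and 5.2% for M. Without the 63 dpn arrays of pigs 11 and 12, 0 of 8 were called in H with age, where 3.14% of all probe sets still were. The change of IRAK4 was then 0.27 (SE 0.11, q = 0.105) by 023261 and 0.28 (SE 0.13, q = 0.155) by 007774, and it was positive in the 5 other H pigs. Cell type genes also differed with age in H pigs, with 4 of 6 B cell genes (median log2 difference 0.56), 3 of 9 monocyte genes (0.60) and 1 of 8 NK cell genes (0.50) called higher at 63 dpn. Of the erythroid genes 2 of 5 (-0.43) and of the neutrophil genes 1 of 8 (0.46) were called lower, and 0 of 7 T cell and 0 of 6 platelet genes were called. Their part in the changes of the members was not tested.

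Whether the change with age in H differed from the mean change in L and M was tested directly. The members called were 0 of 8, and 0% of all probe sets were called. At an unadjusted P of 0.05 or less, 5 of the 8 members changed more upward in H, against 20.1% of all probe sets in either direction. IRAK4 had a difference of 0.43 (SE 0.15, q = 0.0765) by 023261 and 0.48 (SE 0.17, q = 0.0732) by 007774. MYD88 000226 had the largest difference among the members, with 0.96 (SE 0.38, q = 0.0894), and MYD88 000225 and LY96 followed with 0.65 (SE 0.30, q = 0.12) and 0.72 (SE 0.33, q = 0.12). Leaving out pig 12 at 63 dpn alone brought the differences to 0.32 for MYD88 000225, 0.61 for MYD88 000226 and 0.46 for LY96. Without the 63 dpn arrays of both pigs 11 and 12, 0 of the 8 members had an unadjusted P of 0.05 or less, and their median difference was 0.27, against 0.46 with all arrays. That count was 3 with repeated quantile normalization and 3 with array weights. Thus the age change of IRAK4 was called in H and not in L or M, while the difference between the diets did not pass the threshold.

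The 4 probe sets of IRAK3, a pseudokinase that restrains the IRAK complex, did not behave alike. Probe sets 030169 and 000935 correlated at 0.71 over the 37 arrays, whereas 007424 correlated at -0.62 with 030169 and at -0.28 with 000935. In H pigs, 007424 fell with age in 7 of 7, by -0.10 to -0.47 within pigs, while 030169 was higher in 6 of 7. The values of 007424 at 63 dpn in H samples ran from 7.59 to 7.90 with a median of 7.77, against 7.87 to 8.17 with a median of 8.03 at 28 dpn in the same pigs. In that probe set the H pigs were also the highest of the 3 later diets at 28 dpn, with means of 7.84 in the later L, 7.95 in the later M and 8.06 in the later H pigs. The ranges at both ages met only at pig 3 at 63 dpn (7.90) and pig 15 at 28 dpn (7.87). Its SD of 0.17 kept it below the filter, but in a fit without the filter its change with age in H was -0.30 (SE 0.09, q = 0.0253), and 9.77% of all probe sets were called there. Against R its log2 difference in H was -0.20 (SE 0.08, q = 0.134) in that fit. Probe set 000934 had a change with age of 0.00 (SE 0.09) in H. Against R its log2 difference in H was -0.12 (SE 0.08, q = 0.294) in the fit without the filter. All 7 H samples lay below the R mean in this probe set. Which transcripts of IRAK3 each probe set reads was not tested, so the direction of IRAK3 as a gene is not settled by these arrays.

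The members without a test in the filtered fit varied little. TICAM1 025680, the adaptor of the TRIF branch, ran from 6.03 to 6.49 in H samples with a median of 6.16, and from 5.96 to 6.48 in R samples with a median of 6.22. In the fit without the filter, its log2 difference between H and R was -0.01 (SE 0.07). IRAK1, the kinase that IRAK4 phosphorylates, gave log2 differences between H and R of -0.06 (SE 0.07), 0.06 (SE 0.10) and -0.09 (SE 0.07) by probe sets 001980, 020430 and 001979. None of these had a q below 0.341. In H with age the 3 probe sets of IRAK1 gave -0.13, 0.02 and -0.11, and 3, 3 and 1 of the 7 H pigs were higher at 63 dpn.

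IRAK2, which acts beside IRAK1 and was not among the 9 genes, was read by 2 probe sets. Probe set 000247 carries the name of IRAK2 in the supplement of the study, which chose it on these samples, so its direction in H against R is no independent evidence. At 63 dpn its values in H samples were 6.76 (pig 3), 6.95 (pig 15), 7.16 (pig 12), 7.26 (pig 6), 7.29 (pig 11), 7.31 (pig 18) and 7.38 (pig 9), against 5.64 to 7.29 in R samples with a median of 6.62. Here the H samples were close together and pigs 11 and 12 did not stand out. The log2 difference was 0.53 (SE 0.14, q = 0.0346), and the change with age was 0.69 (SE 0.17, q = 0.00802) and was positive in 7 of 7 H pigs. Without the 63 dpn arrays of pigs 11 and 12, these values were 0.51 (q = 0.193) and 0.66 (q = 0.0377), so that the size was kept where that of MYD88, LY96 and IRAK4 was not. Probe set 033585, which the array annotation assigns to IRAK2, had a log2 difference of 0.27 (SE 0.11, q = 0.122) in H against R and correlated with 000247 at 0.70.

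A receptor list held receptors that use these adaptors together with coreceptors and accessory proteins, and 18 of its 21 genes were tested. Of these, 3 were called higher in H than in R and 0 lower, where 2.09% of all probe sets were called in either direction. The same share applies to the counts of the other 3 lists in this comparison. The called genes were IL1R1, the signaling receptor of interleukin-1 (log2 difference 0.78, SE 0.15), IL18R1, a chain of the interleukin-18 receptor (0.63, SE 0.15), and the coreceptor CD14 (0.78, SE 0.23), with q of 0.0136, 0.0285 and 0.0478. Of the 18, 17 lay higher in H, with a median log2 difference of 0.42, against -0.02 over all probe sets. Downstream of TRAF6, 1 of 9 genes tested was called, which was TAB3, an adaptor of the kinase TAK1 (0.44, SE 0.13, q = 0.0434). The median of that list was 0.04. IKBKB (0.30, q = 0.0775), a kinase that releases NF-kB, and PELI1 (0.34, q = 0.115), a ubiquitin ligase, were next by P and not called.

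In the branch of TICAM1, 1 of 8 genes tested was called higher in H, which was TANK, a scaffold of the kinase TBK1 (0.61, SE 0.14, q = 0.0246), and the median of the list was 0.27. TICAM2, the bridging adaptor between TLR4 and TICAM1, had 0.31 (q = 0.104) and IRF5, a transcription factor, 0.40 (q = 0.116). The list was chosen by hand, and its genes are not all particular to this branch, IRF5 among them. Of 11 inhibitors of the pathway tested, 2 were called higher in H. They were IL1R2, the decoy receptor of interleukin-1 (1.31, SE 0.30, q = 0.0212), and DUSP1, a phosphatase of MAP kinases (0.80, SE 0.20, q = 0.0291). RNF216 (0.24, q = 0.143), a ubiquitin ligase, was next by P, and the median of the list was 0.21. In L against R and in M against R, 0 genes of these 4 lists were called. Without the 63 dpn arrays of pigs 11 and 12, 0 genes of the 4 lists were called in H against R. The medians were then 0.21 for the receptor list, -0.01 downstream of TRAF6, 0.21 for the TRIF branch and 0.11 for the inhibitors. The lists were drawn up with results of these data known, so their counts are a description, and CD14 stands in the lists of both receptors and monocyte genes. The study also names IL1R1, TAB3, TANK, IL1R2 and DUSP1 as higher in H than in R on these samples.

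**Figure D5:**
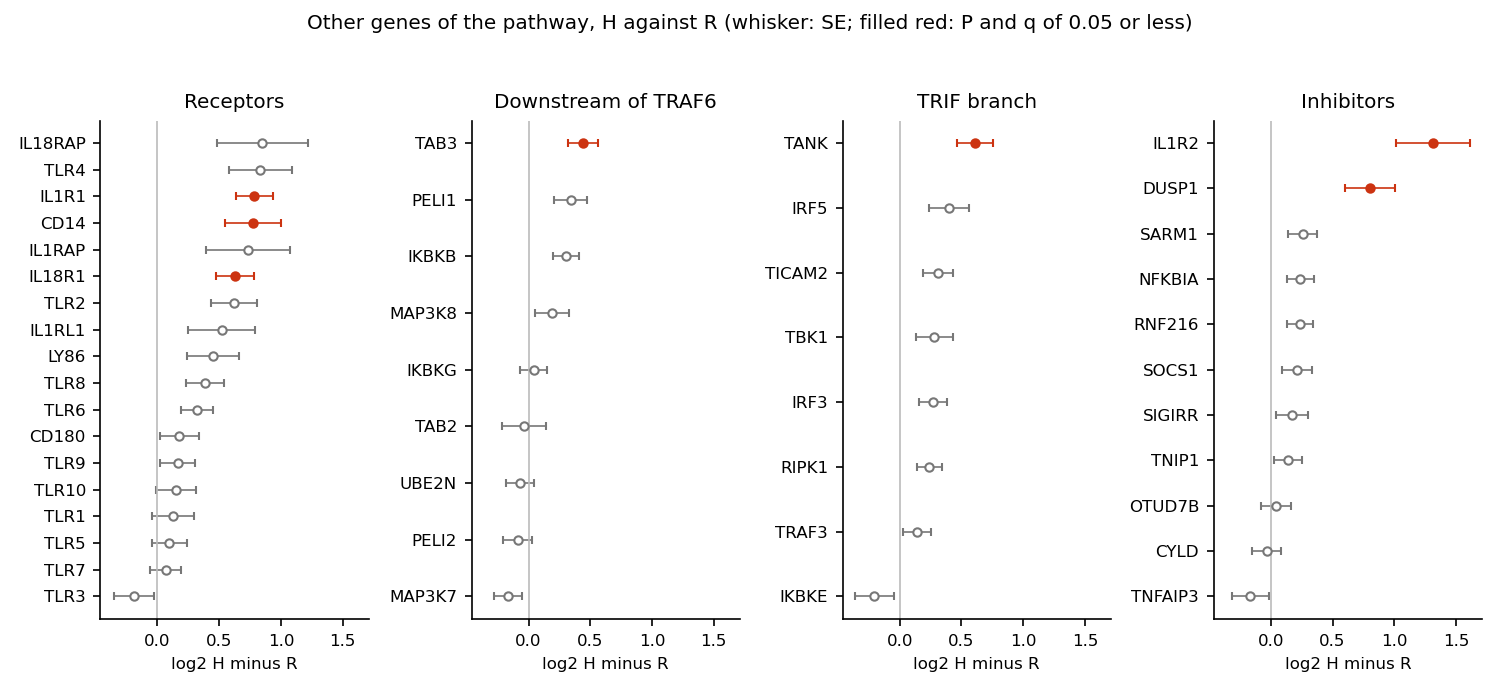
Log2 difference between H and R (horizontal axes) of the tested genes of 4 pathway lists, each gene represented by its brightest probe set. Points are limma estimates, whiskers SE, and filled red points mark genes called at P and q of 0.05 or less, which are 3 genes of the receptor list, 1 gene downstream of TRAF6, 1 of the TRIF branch and 2 inhibitors.

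With age, the H pigs showed more calls in these lists. They were 7 of 18 genes of the receptor list, 2 of 9 downstream of TRAF6, 4 of 8 of the TRIF branch list and 2 of 11 inhibitors. All were higher at 63 dpn, while 12.5% of all probe sets were called in either direction. Without the 63 dpn arrays of pigs 11 and 12, the counts were 1, 1, 3 and 0, the called genes being IL1R1, TAB3, TRAF3, TANK and IRF5. In L and M with age, 0 genes of the 4 lists were called.

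As a description of likeness, the named genes whose log2 values were most correlated over the 37 arrays with the brightest tested probe set of each of the 5 genes that passed the filter were taken from 9528 genes. For MYD88 they were BCL6 (r = 0.965) and RARA (r = 0.958), and for LY96 NFIL3 (r = 0.922) and FBXO34 (r = 0.92). For IRAK4 they were MAPK6 (r = 0.849) and FBXL5 (r = 0.831), for IRAK3, by 030169 only, LY86 (r = 0.836) and LOC100515837 (r = 0.824), and for TOLLIP BCAT2 (r = 0.811) and MED15 (r = 0.807). The 2 arrays of pigs 11 and 12 enter each of these values.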

How the data were processed

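The authors hybridised PBMC RNA to the porcine snowball array, read it with GCOS 1.1.1 by the submitters' processing notes, and deposited RMA-normalized log2 values of 47845 probe sets on 37 arrays. No columns were left unmatched. Probe sets were named through the platform annotation, with older symbols updated, and 26426 had 1 symbol. After removal of 123 control probe sets and the study's SD and mean filter, lmFit and eBayes (limma 3.58.1, R 4.3.3) were run on all arrays with dietary group (R, L, M, H) and sex as factors, or with diet and age as 6 groups and sex. Each of these fits took 1 spread per probe set over all groups and did not use the pairing of pigs. A missing call in L or M therefore does not show that a gene was unchanged. Nor does a missing call at the start show that the later diets were alike. The study's sire term was left out because the labels used here give no sire. Storey's q was computed per comparison over all probe sets, with lambda from 0.05 to 0.95. In all, 10 comparisons were made. The named genes were all annotated probe sets of the members, IRAK2, at most 3 genes of each pathway list by lowest P in H against R, and the 2 genes most correlated with the brightest tested probe set of each gene. List genes were represented by their probe set with the highest mean. Members and lists were chosen with earlier results of these data known. Pig numbers pair the samples, since by the labels the same pig was sampled at both ages. Deviations from group means of the same pig correlated at -0.162 to 0.235 over 18 pigs. The fit was tested on simulated data. RMA leaves no background level for an array, so absence of a transcript cannot be read from the values. The number of pigs and the spread between them limit the precision.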

Additional observations from a re-analysis of the deposited data

Results flagged for a closer look

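In 96 groups of a probe set, diet and age, 3 samples stood far from the rest of their group by Dixon's test at the 95% level, which marks about 1 in 20 groups by chance. MYD88 000225 reached 12.10 in the 63 dpn array of H pig 12, with the next H array at 10.48. LY96 was at 6.42 in the 28 dpn array of H pig 18, with the next at 7.21. IRAK4 007774 was at 8.43 in the 63 dpn array of M pig 13, with the next at 7.96. The causes were not tested.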

How the results depend on the processing

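The 1 member called in H against R was IRAK4 023261, near the threshold. The count was 0 with Benjamini-Hochberg adjustment (adjusted P = 0.0718), 0 without the filter (q = 0.0508), 0 with a filter of SD over 0.35 and mean over 5, which left 3 members and no IRAK4, 0 with quantile normalization repeated (q = 0.103), 0 with array weights (q = 0.171) and 0 when pigs 11 and 12 at 63 dpn were left out (q = 0.409). The share of all probe sets called also moved, from 2.09% in the main fit. It was 0.805% with Benjamini-Hochberg adjustment, 0.895% without the filter and 11.5% with the stricter filter. It was 0.954% with quantile normalization repeated, 0.438% with array weights and 0.0142% without pigs 11 and 12. With pig number as a fixed replicate block, which sets H against its own 28 dpn arrays, the count was 2 (IRAK4 007774 with q = 0.0164), and 2935 probe sets (10.5%) were called in place of 588. In that fit IRAK3 000935 turned to 0.0929 in H against R. When single arrays were left out, the count ran from 0 to 3. IRAK4 023261 was called in 20 of 37 such fits, with q from 0.0175 to 0.207, the highest without pig 12 at 63 dpn and 0.116 without pig 11. For H with age the count of 2 became 0 with the stricter filter, 1 with repeated quantile normalization, 1 with array weights and 0 without pigs 11 and 12, and 3 with arrays centred on their medians and 3 without the filter, and it ran from 1 (without pig 12 at 63 dpn) to 5 (without pig 6 at 63 dpn) with single arrays left out. IRAK4 023261 was called in 37 of 37 of these fits and 007774 in 36. Of all probe sets, 12.5% were called for H with age in the main fit. The share was 18% with the stricter filter, 8.49% with repeated quantile normalization and 8.42% with array weights. It was 3.14% without pigs 11 and 12, 11.8% with arrays centred on their medians and 9.77% without the filter. For the difference of the age change, the count of 0 rose up to 2 with single arrays left out (pig 13 at 63 dpn). TOLLIP turned to -0.0246 in that comparison with repeated quantile normalization. Centring on array medians moved the median over all probe sets in H against R to 0.0275 and kept the count of 1. In that fit 3.14% of all probe sets were called. The replicate block as a random effect kept every count of members called. The correlation it found between the arrays of a pig was -0.00581, or -0.00548 with the 4 dietary groups. That fit was therefore almost the fit without a block, and its counts do not test the pairing. The list counts without pigs 11 and 12 were added after seeing the data. The causes of these shifts were not tested beyond the arrays named.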
